A study of Homo sapiens with 20 samples.

Results

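FUOM, SH2D6, MSMP, CYSRT1, SULT2B1 and TSPAN1 were 6 genes of the 12558 in the count table of sorted HEC-1A cells, and all 6 were among the 10338 genes tested. They were selected on their own read counts, as genes with a strong fall mainly in CD133+ cells that carried the shRNA against EIF4G2. The rule read all 4 populations, so the differences of these 6 genes between populations are given as a description. Where they are counted as called, the count stands beside the share of all genes called and supports nothing further. HEC-1A is an established human endometrial adenocarcinoma line. The cells carried a stable lentiviral shRNA, selected with puromycin, against either GFP (Control) or EIF4G2, also called DAP5 (EIF4G2KD), and a single shRNA stood for the knock-down. Each line was separated with beads and then by flow cytometry for CD133, a cell-surface glycoprotein and the product of PROM1, into CD133+ and CD133- cells. This gave 4 populations, which all shared the viral vector and the selection. Each sample held 15000 sorted cells and was profiled by bulk MARS-seq, a 3'-end sequencing method that reads the tail end of each mRNA, and 19 libraries were analysed, 5 in each population except CD133+ Control, which had 4 (numbers 1, 2, 4 and 5).

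The 6 genes belong to no single pathway. FUOM encodes fucose mutarotase, which interconverts the anomers of L-fucose ahead of its salvage into GDP-fucose, the donor for fucosylated glycans. SULT2B1 is a cytosolic sulfotransferase that places sulfate on cholesterol and other 3β-hydroxysteroids, and it is known from skin, where cholesterol sulfate forms part of the barrier. CYSRT1 is a small cysteine-rich protein known from the cornified layer of the epidermis. SH2D6 is an SH2-domain adaptor of the BLNK family and is known as a tuft cell gene. MSMP is a secreted microseminoprotein described as a ligand of the chemokine receptor CCR2. TSPAN1 is a tetraspanin of epithelial surfaces. EIF4G2 itself is a translation factor of the eIF4G family that does not bind the cap-binding protein eIF4E, so the counts here measure transcripts and not the translation it acts on.

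The genes were spread over the genome (GRCh38, GENCODE annotation), and only MSMP and CYSRT1 shared a chromosome. FUOM lay at chr10:133355158-133358025 on the minus strand, SH2D6 at chr2:85418714-85437029 on the plus strand and TSPAN1 at chr1:46175073-46185962 on the plus strand. MSMP lay at chr9:35752990-35756613 on the minus strand, CYSRT1 at chr9:137225174-137226315 on the plus strand and SULT2B1 at chr19:48552172-48599425 on the plus strand. MSMP lay inside the span of RGP1, which is annotated on the opposite strand and is itself in the table, so reads of the 2 genes can be told apart only where counting used strand, which was not given in the sources used here.

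The promoter windows of 4 of the genes are shown because FUOM and SH2D6 had the deepest differences between the CD133+ populations and overlapped between the CD133- populations, while MSMP and CYSRT1 stood higher in most CD133- EIF4G2KD than CD133- Control libraries. All 6 genes matched a RefSeq window (GRCh38.p14), each running from 250 bases before to 50 bases after an annotated start, 5′ to 3′ on the gene's strand. SH2D6 had 2 such windows, and the one whose start is that of the gene above is shown. The RefSeq start used for MSMP lies inside the longer GENCODE span given above and not at its end. The windows are chr10:133357970-133358269 (minus strand) for FUOM, chr2:85418464-85418763 (plus) for SH2D6, chr9:35754227-35754526 (minus) for MSMP and chr9:137224924-137225223 (plus) for CYSRT1. Capitals mark matches, on either strand, to the TATA box TATAAA, the CCAAT box, the GC box GGGCGG, the AP-1 motif TGANTCA, the E-box CACCTG, or CTACAANTC, which was added after the SH2D6 window had been read.
FUOM: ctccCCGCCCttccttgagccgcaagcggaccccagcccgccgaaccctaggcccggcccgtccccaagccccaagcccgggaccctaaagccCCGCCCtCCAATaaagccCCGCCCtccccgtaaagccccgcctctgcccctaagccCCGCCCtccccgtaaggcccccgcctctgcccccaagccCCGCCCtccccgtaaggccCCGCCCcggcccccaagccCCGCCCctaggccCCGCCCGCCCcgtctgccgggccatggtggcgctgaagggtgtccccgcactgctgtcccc
SH2D6: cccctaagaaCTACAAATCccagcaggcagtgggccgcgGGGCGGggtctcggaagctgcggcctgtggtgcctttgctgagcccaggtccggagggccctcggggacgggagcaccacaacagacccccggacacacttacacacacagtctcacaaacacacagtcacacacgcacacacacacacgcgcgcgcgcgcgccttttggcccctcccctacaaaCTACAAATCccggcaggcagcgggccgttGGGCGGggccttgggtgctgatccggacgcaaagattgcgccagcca
MSMP: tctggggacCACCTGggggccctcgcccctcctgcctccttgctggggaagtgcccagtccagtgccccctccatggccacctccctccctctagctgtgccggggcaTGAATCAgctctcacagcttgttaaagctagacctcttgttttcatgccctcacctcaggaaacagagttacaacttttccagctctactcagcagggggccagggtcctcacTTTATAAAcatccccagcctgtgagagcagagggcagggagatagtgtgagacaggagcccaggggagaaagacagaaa
CYSRT1: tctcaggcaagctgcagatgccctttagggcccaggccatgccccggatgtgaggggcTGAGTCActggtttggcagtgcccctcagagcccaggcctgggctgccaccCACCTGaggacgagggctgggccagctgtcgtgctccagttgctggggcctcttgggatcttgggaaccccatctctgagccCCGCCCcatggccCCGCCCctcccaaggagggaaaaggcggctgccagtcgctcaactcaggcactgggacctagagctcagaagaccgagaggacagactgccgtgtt

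The windows of FUOM and SH2D6 were of the CpG-rich kind, and that of MSMP was not. FUOM held 26 CpG and a GC content of 76.3%, and SH2D6 held 24 CpG and 65.3%, beside medians of 14 CpG and 58.7% over 35116 promoter windows. FUOM held 9 GC boxes and 1 CCAAT box. SH2D6 held 2 GC boxes and 2 copies of CTACAANTC, each copy shortly ahead of a GC box. MSMP held 2 CpG, matches to the TATA box on both strands, which overlap each other, 1 AP-1 match, 1 E-box and no GC box. CYSRT1 held 9 CpG, 2 GC boxes, 1 AP-1 match and 1 E-box. The SULT2B1 window held 15 CpG, 1 GC box and 3 E-boxes, and the TSPAN1 window held none of these motifs. Of all windows, 45.0% held GGGCGG, 34.6% CCAAT, 20.6% CACCTG, 11.5% TATAAA, 7.71% TGANTCA and 1.45% CTACAANTC. No match to one motif overlapped a match to another. MSMP and CYSRT1 shared the AP-1 and E-box letters and the SH2D6 and FUOM windows the GC box, which is a description of the letters and no measure of binding.

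Several libraries stood apart and are named before the results. Depth ran from 1679447 to 5234905 counts per library, with a median of 3047418. EIF4G2 was read at 193 to 360 CPM (counts scaled to a common library total) in the 5 CD133- Control libraries and at 36.8 to 164 CPM in the 5 CD133- EIF4G2KD libraries, with no overlap (two-sided exact permutation p = 0.0079, the smallest that 5 against 5 can give). In CD133+ cells it was read at 275 to 377 CPM in Control and at 130 to 350 CPM in EIF4G2KD, and these ranges overlapped (two-sided exact permutation p = 0.063, unpaired). The library labelled CD133+ EIF4G2KD 1 lay inside the Control range, at 350 CPM. By number, EIF4G2 was lower in EIF4G2KD in all 4 CD133+ pairs, at 350 against 377, 270 against 360, 231 against 275 and 253 against 335 CPM. In the fit over all genes, its log2 difference between EIF4G2KD and Control was -1.48 (SE 0.33, edgeR adjusted p = 0.12) in CD133- cells. In CD133+ cells it was -0.45 (SE 0.335, edgeR adjusted p = 0.52), so neither passed the threshold of 0.05 used below. With a term for the replicate number, the values were -1.55 (edgeR adjusted p = 0.018) and -0.48 (edgeR adjusted p = 0.3). PROM1 followed the sort, at 11.6 to 26.4 CPM in CD133+ and 0.428 to 3.31 CPM in CD133- libraries. All 12 epithelial markers of the list were tested, at a summed 9790 to 16100 CPM. None of 10 fibroblast markers and 1 of 11 immune markers were among the genes of the table. The only endothelial markers there were EGFL7 and ESAM, 2 of 8, with a summed level of 7.37 to 11.5 CPM in CD133+ Control, 0 to 2.37 CPM in CD133+ EIF4G2KD, 0.774 to 5.44 CPM in CD133- Control and 1.71 to 2.80 CPM in CD133- EIF4G2KD. The part of that difference in the results was not tested.

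The library labelled CD133- Control 2 stood apart from the other CD133- Control libraries. It had the lowest EIF4G2 level of the CD133- Control libraries, at 193 CPM, against 245 to 360 CPM in the other 4. That level was still above all CD133- EIF4G2KD libraries, at 36.8 to 164 CPM, and whether the label is right was not tested. Without it, 60 genes were called between CD133- EIF4G2KD and CD133- Control, and at 54 of these 60 genes the left-out library lay nearer to the EIF4G2KD mean than to the mean of the other Controls. On a scale with the mean of the other Controls at 0 and the EIF4G2KD mean at 1, its median position over these genes was 0.98. With MSMP and CYSRT1 left out of these genes, it lay nearer to the EIF4G2KD mean at 52 of 58. Leaving out any other CD133- Control library gave 0 calls in this comparison. The counts therefore describe the library and are no independent check of it. Results that rest on it are given with and without it. The first principal component held 25% of the variance, and on it CD133- EIF4G2KD 2, 4 and 5 and CD133+ EIF4G2KD 3 lay apart from the other 15 libraries. These 4 also had the lowest EIF4G2 levels of all 19 libraries, at 102, 51.1, 36.8 and 130 CPM in that order. Leaving them out therefore removes the libraries with the least EIF4G2 transcript. Of CD133- EIF4G2KD it keeps libraries 1 and 3, at 163 and 164 CPM. The call counts and the values of the knock-down comparisons without these 4 are given below.

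FUOM was the gene with the deepest difference of the 6. Its level was 70.1, 69.8, 51.2 and 81.3 CPM in the CD133+ Control libraries, in the order of their numbers, and 3.51, 4.08, 8.61, 2.37 and 2.50 CPM in CD133+ EIF4G2KD. It was 40.4, 37.9, 40.1, 39.0 and 62.1 CPM in CD133- Control and 31.7, 40.2, 37.2, 34.1 and 56.1 CPM in CD133- EIF4G2KD. All 5 CD133+ EIF4G2KD libraries were far below the other 14. The ranges of the 2 CD133- populations overlapped, although CD133- EIF4G2KD 1, 3 and 4 lay below every CD133- Control library. Population means were 68.1 ± 12.5 (SD, n = 4), 4.21 ± 2.56 (SD, n = 5), 43.9 ± 10.2 (SD, n = 5) and 39.9 ± 9.61 CPM (SD, n = 5) in the same order. The 5 low libraries still held 5 to 24 reads of FUOM each, so the transcript was scarce there and not absent. In such bulk samples, fewer cells with the transcript and less transcript per cell cannot be told apart. Between the CD133+ populations the log2 difference was -4.01 (SE 0.29, 95% interval -4.61 to -3.41), a description of the values that chose the gene, and -4.43 without the 4 libraries that stood apart.

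SH2D6 resembled FUOM at a lower count, with the highest levels in CD133+ Control and the lowest in CD133+ EIF4G2KD. It was read at 27.9, 24.8, 17.4 and 32.9 CPM in CD133+ Control and at 3.51, 4.90, 3.59, 2.37 and 1.39 CPM in CD133+ EIF4G2KD. In CD133- cells it was at 16.3, 11.6, 17.2, 8.96 and 15.7 CPM in Control and at 13.2, 14.0, 14.5, 17.0 and 18.4 CPM in EIF4G2KD. The CD133+ EIF4G2KD libraries were again below all others, and CD133+ Control overlapped the CD133- libraries only at its lowest value. Means were 25.8 ± 6.48 (SD, n = 4), 3.15 ± 1.33, 14.0 ± 3.52 and 15.5 ± 2.18 CPM (SD, n = 5 each). With 5 to 13 reads per library in the low population, the difference of -3.04 (SE 0.28, 95% interval -3.63 to -2.46) rests on small counts. SH2D6 lies with its start 0.3 kb from CAPG, the next tested gene, which encodes an actin filament capping protein and differed by 0.03 between the CD133+ populations.

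MSMP varied widely within CD133- Control. Its level was 28.4, 18.2, 13.5 and 31.4 CPM in CD133+ Control and 3.24, 6.54, 5.74, 1.89 and 6.12 CPM in CD133+ EIF4G2KD. In CD133- Control it was 11.3, 45.7, 2.98, 3.84 and 15.1 CPM, and in CD133- EIF4G2KD 43.3, 46.3, 35.0, 39.2 and 86.9 CPM. The CD133- Control libraries 3 and 4 lay inside the range of CD133+ EIF4G2KD, so the low level was not particular to the latter, while the library labelled CD133- Control 2 lay among the CD133- EIF4G2KD libraries. The difference between the CD133+ populations was -2.27 (SE 0.58, 95% interval -3.47 to -1.07), with 4 to 22 reads per library in CD133+ EIF4G2KD. CD133- Control 3 and 4 held 9 and 12 reads. RGP1, which overlaps it, differed by -0.48 (SE 0.25, edgeR adjusted p = 0.32).

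CYSRT1 was nearly constant in CD133+ Control, at 61.9, 51.6, 59.1 and 59.4 CPM, and low in CD133+ EIF4G2KD, at 10.5, 17.2, 19.4, 15.6 and 14.5 CPM. In CD133- Control it was 50.7, 154, 37.1, 59.2 and 43.4 CPM, and in CD133- EIF4G2KD 144, 144, 166, 173 and 180 CPM. The CD133+ EIF4G2KD libraries were below all others. The CD133- EIF4G2KD libraries were above all others except the library labelled CD133- Control 2. The difference between the CD133+ populations was -1.92 (SE 0.31, 95% interval -2.57 to -1.27), with 33 to 54 reads per library in the low population.

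SULT2B1 was read at 35.5, 18.2, 17.7 and 36.0 CPM in CD133+ Control and at 6.75, 8.17, 6.10, 7.10 and 10.6 CPM in CD133+ EIF4G2KD. In CD133- cells it was 23.4, 32.5, 11.3, 15.0 and 25.7 CPM in Control and 32.4, 24.4, 36.6, 24.0 and 62.5 CPM in EIF4G2KD. The highest CD133+ EIF4G2KD library, at 10.6 CPM, was close to the lowest CD133- Control library, at 11.3 CPM, so the groups were separate by a narrow gap only. The difference between the CD133+ populations was -1.80 (SE 0.34, 95% interval -2.50 to -1.10).

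TSPAN1 did not match the description by which it was listed. It was the most abundant of the 6 by counts and was read at 257, 207, 219 and 250 CPM in CD133+ Control and at 164, 135, 95.4, 94.2 and 119 CPM in CD133+ EIF4G2KD. In CD133- Control it was 160, 145, 114, 144 and 155 CPM, and in CD133- EIF4G2KD 157, 144, 136, 142 and 154 CPM. The population that stood apart was CD133+ Control, above all other 15 libraries, while CD133+ EIF4G2KD overlapped both CD133- populations. Its difference between the CD133+ populations was -0.94 (SE 0.15, 95% interval -1.25 to -0.63), at position 340 of 10338 genes ordered from the deepest difference. FUOM stood at position 2, SH2D6 at 7, MSMP at 33, CYSRT1 at 67 and SULT2B1 at 74 in that order.

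**Figure D1:**
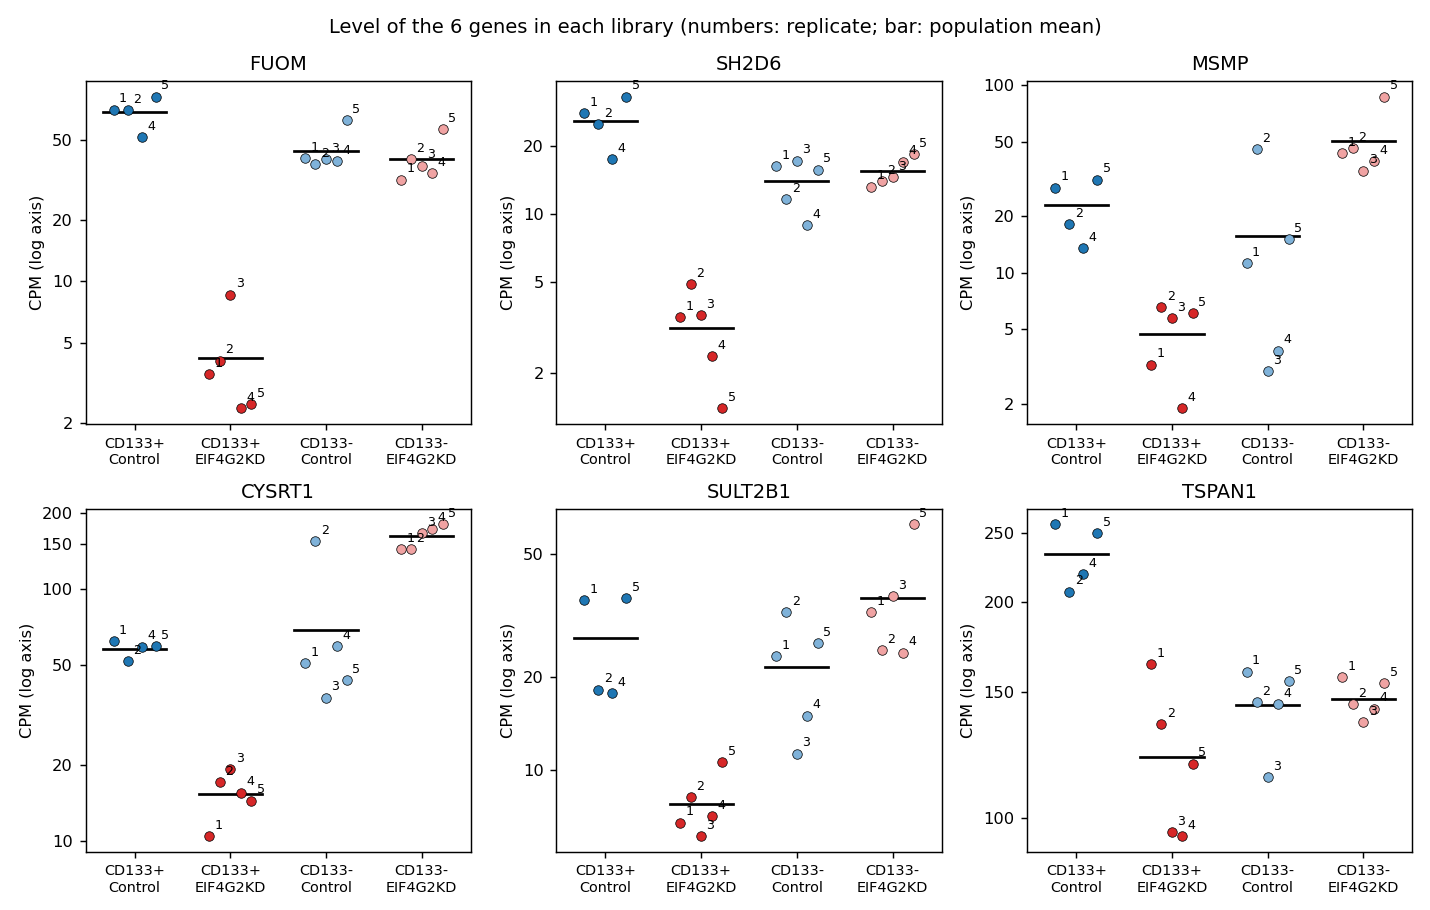
Level of each gene in CPM on a log axis, for the 4 populations. Each point is 1 library with its replicate number and each bar a population mean; FUOM, SH2D6, CYSRT1 and SULT2B1 are lower in all 5 CD133+ EIF4G2KD libraries than in the other 14, and the library labelled CD133- Control 2 lies among the CD133- EIF4G2KD libraries for MSMP and CYSRT1.

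A gene was called where the edgeR adjusted p (Benjamini-Hochberg over all genes tested) was below 0.05, the log2 difference exceeded 0.58 in size and the mean normalised count exceeded 10. All 6 genes were called lower in CD133+ EIF4G2KD than in CD133+ Control, beside 3.40% of all genes tested. For 4 of the 6, every CD133+ EIF4G2KD library was below the other 14 libraries, beside 1.13% of all genes. The exceptions were MSMP and TSPAN1. The contrast between the EIF4G2KD populations gave 3.23 for FUOM, 2.29 for SH2D6, 3.38 for MSMP, 3.39 for CYSRT1 and 2.21 for SULT2B1, all called higher in CD133- EIF4G2KD, beside 3.49% of all genes. TSPAN1 differed by 0.27 there (95% interval -0.02 to 0.57) and was not called. The knock-down difference in CD133+ cells less that in CD133- cells was called lower for all 6, beside 1.33% of all genes, and ran from -3.96 for MSMP to -0.97 for TSPAN1. These counts follow from how the genes were chosen. Without CD133+ Control 5, MSMP was no longer called in the CD133+ contrast, and its difference was -2.45 to -2.08 over all libraries left out in turn. Without the 4 libraries that stood apart, the differences between the CD133+ populations were -4.43 for FUOM, -3.10 for SH2D6, -2.35 for MSMP, -2.02 for CYSRT1, -1.73 for SULT2B1 and -0.87 for TSPAN1, and all 6 were called. Between the EIF4G2KD populations 5 were called, as before. For the knock-down difference in CD133+ cells less that in CD133- cells, 4 of the 6 were then called, and MSMP (-3.69) and TSPAN1 (-0.90) were not.

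The comparison of CD133- EIF4G2KD with CD133- Control divided the 6 genes. The absence of a fall there was part of how they were chosen. FUOM differed by -0.15 (SE 0.23, 95% interval -0.62 to 0.32), SH2D6 by 0.13 (SE 0.24, 95% interval -0.36 to 0.63) and TSPAN1 by 0.03 (SE 0.14, 95% interval -0.26 to 0.32). MSMP differed by 1.69 (SE 0.49, 95% interval 0.67 to 2.71), CYSRT1 by 1.23 (SE 0.28, 95% interval 0.66 to 1.81) and SULT2B1 by 0.74 (SE 0.30, 95% interval 0.12 to 1.36), the direction opposite to that in CD133+ cells. None of the 6 was called over all genes, where 1 gene of 10338 was called (0.00967%), the thrombin receptor F2R at -2.24 (SE 0.36, edgeR adjusted p = 0.046), and 1092 had an unadjusted p below 0.05.

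The calls of those 3 genes changed with the library labelled CD133- Control 2 and with the pairing of the libraries. In the paired fit, which adds a term for the replicate number, MSMP (1.93, SE 0.38) and CYSRT1 (1.35, SE 0.25) were called higher, beside 0.300% of all genes, and SULT2B1 (0.74) was not. Without CD133- Control 2 and with no such term, MSMP (2.55, SE 0.42) and CYSRT1 (1.76, SE 0.16) were called higher, beside 0.213% of all genes, and SULT2B1 (0.93) was not. With both changes, MSMP (2.63), CYSRT1 (1.78) and SULT2B1 (0.995) were all called higher, beside 1.01% of all genes. The means of the 4 other CD133- Control libraries were 8.31 ± 5.89 CPM for MSMP, 47.6 ± 9.51 CPM for CYSRT1 and 18.8 ± 6.81 CPM for SULT2B1 (SD, n = 4), against 50.1 ± 21.0, 161 ± 16.8 and 36.0 ± 15.8 CPM in CD133- EIF4G2KD (SD, n = 5). Without the 4 libraries that stood apart on the first component, MSMP differed by 1.35, CYSRT1 by 1.18, SULT2B1 by 0.68, FUOM by -0.36, SH2D6 by -0.016 and TSPAN1 by 0.03, and none was called.

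**Figure D2:**
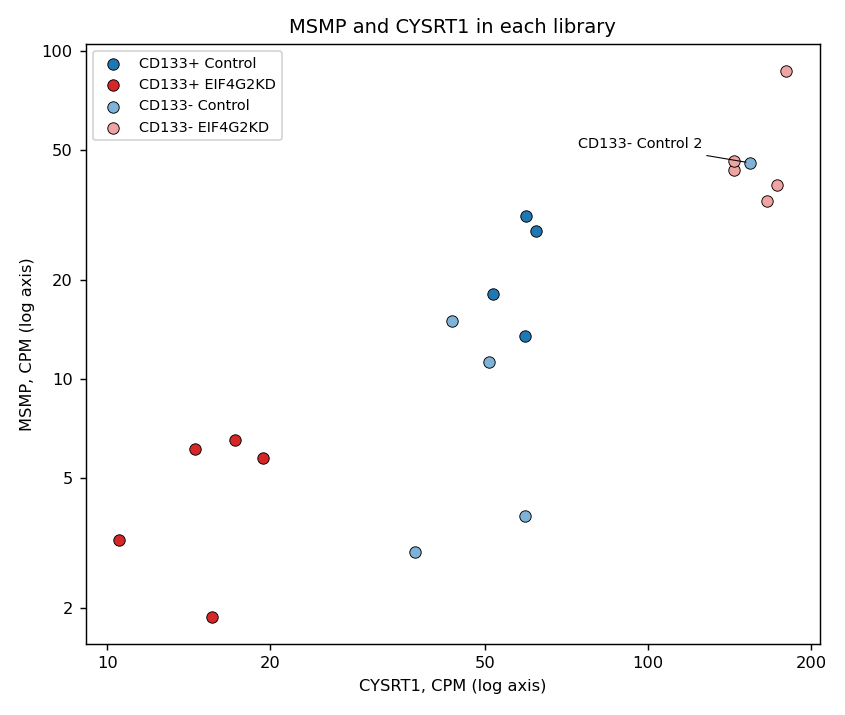
MSMP against CYSRT1 in the 19 libraries, both in CPM on log axes, coloured by population. The library labelled CD133- Control 2, at 154 CPM for CYSRT1 and 45.7 CPM for MSMP, lies with the 5 CD133- EIF4G2KD libraries, and the 5 CD133+ EIF4G2KD libraries are lowest for CYSRT1.

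In the Control cells, CD133- libraries were compared with CD133+ libraries. This comparison shares its CD133+ Control libraries with the one that chose the genes, so a high level in these 4 libraries enters both. TSPAN1 was lower in CD133- Control by 0.70 on the log2 scale (SE 0.15), the one gene of the 6 that was called, beside 0.0484% of all genes called lower. That call was lost in 16 of the 19 fits that left out 1 library, each CD133+ Control and each CD133- Control library among them, while the difference stayed between -0.76 and -0.63. It was also lost without the 4 libraries that stood apart, at -0.70. SH2D6 differed by -0.88 (SE 0.24) and FUOM by -0.63 (SE 0.24), and neither was called. MSMP differed by -0.58 and SULT2B1 by -0.33, with 95% intervals from -1.65 to 0.50 and from -0.98 to 0.32. CYSRT1 differed by 0.24 with CD133- Control 2 and by -0.29 without it, and was called in neither fit.

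**Figure D3:**
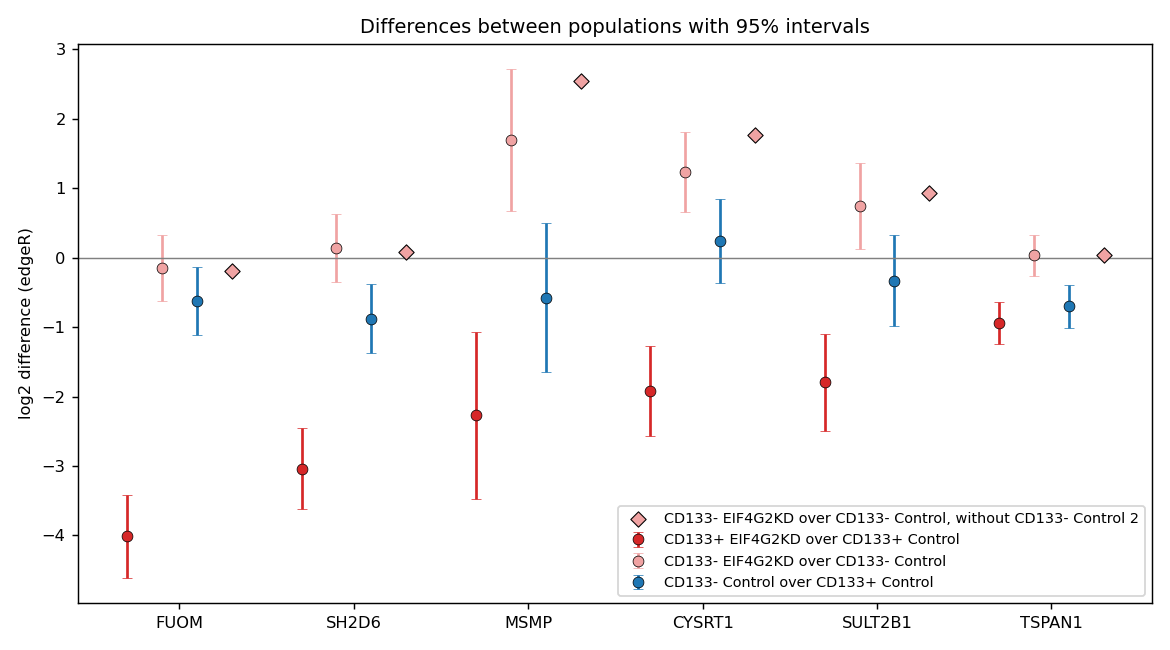
Log2 differences of the 6 genes from edgeR, with 95% intervals, for EIF4G2KD over Control in CD133+ cells, the same in CD133- cells, and CD133- over CD133+ in Control cells. Diamonds give the CD133- knock-down difference without the library labelled CD133- Control 2, at 2.55 for MSMP and 1.76 for CYSRT1; the rule that chose the genes read all of these populations.

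The levels therefore had 3 orders. FUOM and SH2D6 were highest in CD133+ Control, intermediate and alike within their spread in both CD133- populations, and lowest in CD133+ EIF4G2KD. MSMP, CYSRT1 and SULT2B1 had their highest mean in CD133- EIF4G2KD and their lowest in CD133+ EIF4G2KD, with both Control populations between and overlapping each other. TSPAN1 was highest in CD133+ Control, and its other 3 populations overlapped. Within populations, after each population's mean log2 CPM was removed, FUOM and SH2D6 had a Pearson r of 0.58 over 19 libraries, MSMP and SULT2B1 0.78, MSMP and CYSRT1 0.67 and CYSRT1 and SULT2B1 0.44. Without CD133- Control 2, over 18 libraries, MSMP and SULT2B1 kept 0.77, MSMP and CYSRT1 had 0.25 and CYSRT1 and SULT2B1 0.24. MSMP and SULT2B1 were higher in the Control libraries numbered 1 and 5 than in that numbered 4 in both CD133 states, and than in that numbered 3 in CD133- Control. Both genes of a pair were read in the same libraries at the same depth, so the correlations describe these libraries and carry no p.

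No neighbour of FUOM, SH2D6 or TSPAN1 was lowered as far as the gene itself between the CD133+ populations. Up to 5 tested genes on each side of each gene were taken. None of the 7 around FUOM was called, and 5 of them were negative, with differences from -1.06 for KNDC1 (SE 0.45) to 0.29. ECHS1, a mitochondrial enzyme of fatty acid oxidation 4.5 kb away, differed by -0.25 (SE 0.10). None of the 10 around TSPAN1 was called, with differences of -0.20 to 0.43. Of the 10 around SH2D6, MAT2A, which makes S-adenosylmethionine, was called at -0.70 (SE 0.17, edgeR adjusted p = 0.012). The median over the other tested genes within 10 Mb was 0.22 for FUOM (28 genes), -0.06 for SH2D6 (33 genes) and 0.03 for TSPAN1 (133 genes). Among them, 3 genes were lower than TSPAN1, and 0 were lower than FUOM or SH2D6.

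Around MSMP, CYSRT1 and SULT2B1 the median gene was lower too, by less than these genes themselves, although 2 genes within 10 Mb of each were lower than the gene itself. All 10 neighbours of MSMP had a negative difference, and CREB3, a membrane-bound transcription factor, fell by 0.84 on the log2 scale (SE 0.15, edgeR adjusted p = 0.0014), as did HRCT1 with 0.88 (SE 0.15, edgeR adjusted p = 0.00064). All 10 neighbours of CYSRT1 were negative, from -1.33 to -0.05, and none was called. SSNA1 (-0.53, edgeR adjusted p = 0.0083) and NELFB (-0.52, edgeR adjusted p = 0.045) missed only the size threshold of 0.58. Of the 10 around SULT2B1, LMTK3 changed by -1.37 (SE 0.22, edgeR adjusted p = 0.00042) and CYTH2 by -0.86 (SE 0.23, edgeR adjusted p = 0.021), while TMEM143 rose by 0.81 (SE 0.21, edgeR adjusted p = 0.017). Within 10 Mb, the median of the other tested genes was -0.64 around MSMP (69 genes, 24 called lower and 0 higher), -0.47 around CYSRT1 (163 genes, 32 lower and 0 higher) and -0.44 around SULT2B1 (331 genes, 49 lower and 3 higher), against 0.01 over all genes tested. Of all 10338 genes tested, 351 (3.40%) were called lower and 268 higher. Taken per library against the CD133+ Control mean, these regional medians were -0.75 to -0.49, -0.55 to -0.37 and -0.50 to -0.34 in the 5 CD133+ EIF4G2KD libraries, and -0.31 to 0.04, -0.26 to 0.19 and -0.18 to 0.08 in the 10 CD133- libraries. Less these medians, MSMP differed by -1.63, CYSRT1 by -1.45 and SULT2B1 by -1.36. The part of the regional shift in the values of the 3 genes was not tested. In the CD133- knock-down comparison the same regions had medians of 0.17, 0.14 and 0.04.

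**Figure D4:**
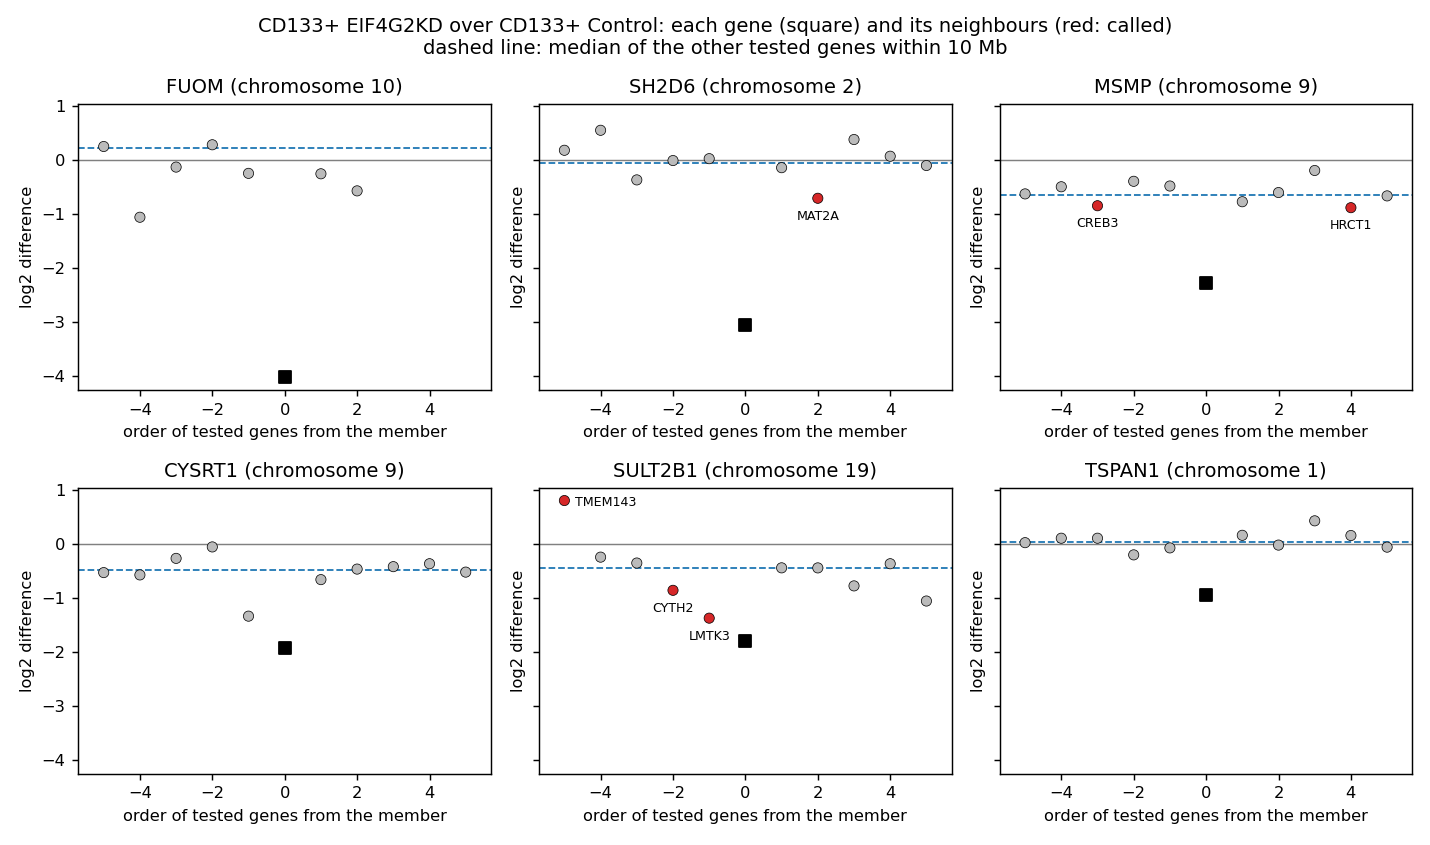
Log2 difference of CD133+ EIF4G2KD over CD133+ Control for each of the 6 genes (square at 0) and up to 5 tested genes on each side, in their order along the chromosome, with called genes in red. The dashed line, the median of the other tested genes within 10 Mb, lies near 0 for SH2D6 and TSPAN1, at 0.22 for FUOM, and at -0.64, -0.47 and -0.44 for MSMP, CYSRT1 and SULT2B1.

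The pathways around the 6 genes did not move with them as lists. Of 10 other tested genes of fucose metabolism and transfer, 1 rose and 1 fell in CD133+ EIF4G2KD (median 0.10). POFUT2, the O-fucosyltransferase of thrombospondin repeats, went from 48.3 ± 3.57 CPM (SD, n = 4) to 30.1 ± 2.66 CPM (SD, n = 5), a log2 difference of -0.68 (edgeR adjusted p = 0.0027). TSTA3, which completes the de novo synthesis of GDP-fucose, rose from 126 ± 29.4 to 195 ± 18.7 CPM, by 0.62 (edgeR adjusted p = 0.023). Of 13 other genes of sulfate activation and sulfotransferases, 2 rose and 0 fell (median 0.24). STS, the steroid sulfatase that removes the sulfate group that SULT2B1 adds, rose from 6.78 ± 2.65 to 19.0 ± 7.63 CPM, by 1.47 (edgeR adjusted p = 0.0091). BPNT1, which degrades the by-product of sulfation, rose by 0.89 (edgeR adjusted p = 0.017).

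Of 14 other tetraspanins, TSPAN14, a partner of the protease ADAM10, rose by 0.71 (edgeR adjusted p = 0.042) and TSPAN13 changed by -1.50 (edgeR adjusted p = 0.016), from 9.37 ± 2.56 to 3.31 ± 0.595 CPM, with a list median of -0.02. Of 12 other SH2 adaptors and partners of the BLNK family, 2 fell (median -0.03), beside 3.40% of all genes called lower. SH2D5 changed by -0.998 (edgeR adjusted p = 0.0013) and VAV2 by -0.73 (edgeR adjusted p = 0.0024), VAV2 being a gene of chromosome 9 like MSMP and CYSRT1. Of 11 other genes of the cornified envelope and epidermal barrier none was called (median 0.01). Of 19 tuft cell markers, 6 were in the table and 3 were tested, SH2D6 among them, and neither SOX9 nor PTGS1, the other 2, was called (differences of 0.85 and 0.84, edgeR adjusted p = 0.17 and 0.21). The 12 epithelial markers had a median of 0.03, and CLDN3, a tight junction claudin, rose by 0.95 (edgeR adjusted p = 0.00094). MSMP had no other tested gene in its list of microseminoproteins and CCR2 ligands. No gene of these lists other than the 6 was called in the CD133- knock-down comparison, where STS differed by -0.35 and POFUT2 by 0.10. In the paired fit SYK, the tyrosine kinase that phosphorylates BLNK, was called higher there, by 0.74 (edgeR adjusted p = 0.037).

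The genes whose log2 CPM ran most like each of the 6 over the 19 libraries were named as a description, 3 for each by Pearson's r, with the 6 themselves left out. FUOM and SH2D6 had an r of 0.96 with each other. For FUOM these were ICAM2, a ligand of leukocyte integrins (r = 0.96), the dynactin subunit DCTN3 (r = 0.95) and LOC105371795 (r = 0.95), and for SH2D6 the collagen COL26A1 (r = 0.92), the ubiquitin-conjugating enzyme UBE2G2 (r = 0.91) and again LOC105371795 (r = 0.91). ICAM2 had means of 27.5 CPM in CD133+ Control, 4.54 CPM in CD133+ EIF4G2KD and 24.6 and 25.4 CPM in the CD133- populations. CYSRT1 ran with the actin-bundling protein FSCN1 (r = 0.95), the secreted lectin CLEC11A (r = 0.95) and the protocadherin PCDH1 (r = 0.94). FSCN1 had means of 68.3 and 17.7 CPM in CD133+ Control and EIF4G2KD and of 105 and 177 CPM in CD133- Control and EIF4G2KD. MSMP ran with the ciliary gene B9D1, the aconitase ACO1 and GRAMD2B (r = 0.89, 0.89 and 0.88). SULT2B1 ran with CREB3, SSNA1 and NIBAN2 (r = 0.94, 0.93 and 0.93), and TSPAN1 with the kinase CDK9, the cyclophilin PPIF and the ribosomal protein MRPL41 (r = 0.89, 0.86 and 0.85). Of these 17 genes, 7 lie on chromosome 9, which holds 4.34% of the tested genes that were placed, and all 3 of those named for SULT2B1 are among them.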

How the data were processed

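Sorted HEC-1A cells of 4 populations were profiled by bulk MARS-seq. The labels number 5 replicates in each, the third CD133+ Control had failed the authors' quality check and was left out, and the design text gives 4 independent experiments, so p-values measure the spread between these samples. Per the submitters' processing notes, reads were trimmed with cutadapt, aligned to hg38 with STAR 2.4.2a, counted with HTSeq and tested with DESeq2, and the notes list mm10 beside hg38. The authors deposited raw counts per gene and, as a normalised signal, the same counts divided by size factors. Their tables of fold changes and p-values, which hold the study's own comparisons, were not used.

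Raw counts were tested with edgeR 4.0.16 in R 4.3.3 (TMM scaling, minimum count 10, minimum total count 15, 1 quasi-likelihood model with a mean per population, adjusted p-values by Benjamini-Hochberg). The mean of the normalised signal served the threshold of 10, and log2 CPM used a prior count of 2. The model was tested on simulated data. The same replicate number was taken to pair the libraries of the CD133- populations, where the deviations of all 5 pairs had correlations above 0.1 (0.158 to 0.518). Some CD133- pairs of unlike number also passed 0.1, such as Control 1 with EIF4G2KD 5 (0.234) and Control 3 with EIF4G2KD 4 (0.218). On the second principal component (22.5% of the variance), libraries numbered 1 and 5 lay opposite those numbered 3 and 4. The pairing is therefore not established, and blocked values are given where they changed a call. None of 36 pairs of libraries within a population was a duplicate (chi-square per degree of freedom 5.15 to 30.2). Positions came from GENCODE or RefSeq for all but 168 genes. At a depth of 1679447 to 5234905 counts per library, a gene read at 2 to 5 CPM rests on few reads, and the ranges of counts are given beside such values.

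Alternatives were RLE scaling, no filter, DESeq2 1.42.0, limma-voom (limma 3.58.1) with quality weights, only the populations compared, the replicate block, calls by the adjusted p with no other threshold, and leaving out each library. Leaving out the 4 libraries apart on the first component, and CD133- Control 2 with the block, were added after seeing the data. Named genes were the 6 genes, EIF4G2 and PROM1, and up to 3 called genes per list with the smallest adjusted p in each knock-down comparison. Also named were called neighbours among the nearest 5 tested genes on each side, and the 3 genes outside the 6 most alike by Pearson's r. RGP1, ECHS1, CAPG, TGOLN2, ESAM, EGFL7, SOX9, PTGS1, SYK and F2R were chosen after their values were seen. The 6 genes and all lists were chosen with earlier results of these data known.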

Additional observations from a re-analysis of the deposited data

Results flagged for a closer look

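For the 6 genes, EIF4G2 and PROM1, the highest and the lowest library of each population were set against the spread of the others in 32 groups. In 5 of these groups a library stood off by more than Dixon's 95% limit, where chance alone gives about 1 in 20 groups. The library labelled CD133- Control 2 was high for MSMP, at 45.7 CPM, and for CYSRT1, at 154 CPM. CD133- EIF4G2KD 5 was high for MSMP, at 86.9 CPM. FUOM was high in CD133- Control 5, at 62.1 CPM, and in CD133+ EIF4G2KD 3, at 8.61 CPM, the latter a library that also stood apart on the first principal component.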

How the results depend on the processing

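Of 804 log2 differences of the 6 genes refitted under an alternative, 766 kept their direction and call, or moved by less than 1 SD between libraries where no test applied. FUOM between the CD133+ populations moved to -4.43 without CD133+ EIF4G2KD 3. Small values changed sign in the CD133- knock-down comparison (FUOM -0.31 to 0.01 and TSPAN1 -0.043 to 0.074 over the libraries left out, SH2D6 -0.016 without the 4 libraries apart), and CYSRT1 between the Control populations ran from -0.29 to 0.40, and was -0.31 without CD133- Control 2 with the replicate block. Of the 6 genes, the number called in the CD133- knock-down comparison was 0, but 1 with DESeq2, 2 with the replicate block, 0 to 2 over the libraries left out and 3 without CD133- Control 2 with the block. Between the Control populations it was 1, but 0 with only the populations compared or without the 4 libraries apart, 0 to 1 over the libraries left out, and 2 without CD133- Control 2 with the block, MSMP being the second at -1.41. Genes called in the CD133- knock-down comparison numbered 1, but 39 with DESeq2, 80 with the replicate block, 0 with limma-voom, with only the populations compared and without the 4 libraries, 232 without CD133- Control 2 with the block, and 0 to 60 over the libraries left out. In the CD133+ knock-down comparison, 619 genes became 1025 with the replicate block, with or without CD133- Control 2. Between the Control populations, 24 became 44 with DESeq2, 42 with limma-voom, 54 with the block, 14 with only the populations compared, 41 without CD133- Control 2 with the block, and 14 to 25 over the libraries left out. Between the EIF4G2KD populations, 606 became 962 with the block, 961 without CD133- Control 2 with the block, 386 with only the populations compared and 283 without the 4 libraries. For the difference of the knock-down effects, 196 became 319 with DESeq2, 588 with the block, 603 without CD133- Control 2 with the block, 108 without the 4 libraries (4 of the 6 genes in place of 6) and 123 to 209 over the libraries left out. The causes were not tested. Outside the CD133- pair of populations, same-numbered libraries had correlations above 0.1 in 19 of 22 pairs, and 12 of 19 libraries correlated best with their own number. The replicate block changed no other call of the 6 genes than MSMP and CYSRT1 in the CD133- knock-down comparison. Counts of 4 to 24 reads per library limit FUOM, SH2D6 and MSMP in CD133+ EIF4G2KD.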
